A study of Mus musculus with 8 samples.

Results

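RGS (regulator of G protein signaling) genes were examined in naive CD4 T cells and in effector Th1, Th2 and Th17 cells of the mouse. The 8 genes described are *Rgs1*, *Rgs2*, *Rgs3*, *Rgs10*, *Rgs14*, *Rgs16*, *Rgs18* and *Rgs19*, taken by their gene symbols from the 23284 genes of the expression tables. The tables list 20 RGS-numbered genes in all, and these 8 were chosen with earlier results of these data known. RNA was sequenced from 4 groups with 2 libraries each, and expression is given as FPKM, a fragment count divided by exon length and by the total mapped in the library, so that levels can be compared between genes.

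All cells carried the DO11.10 transgene (DO11.10 Tg), a TCR specific for an OVA peptide. Naive cells were CD44low CD62Lhi CD4+ cells sorted from spleen and were not cultured. Effector cells were grown from such cells for 6 days, per the methods with OVA peptide and irradiated splenocytes from which T cells had been depleted. The Th1 cultures contained IL-2 (30 U/ml), IL-12 (100 U/ml) and an antibody to IL-4 (1 μg/ml). IL-2 (30 U/ml), IL-4 (100 U/ml) and an antibody to IFNγ (10 μg/ml) were used for Th2. For Th17, the cytokines were IL-6, IL-1β and IL-23 (10 ng/ml each), with both antibodies at 10 μg/ml and no added IL-2 named. Every comparison with naive cells is therefore also one of cultured and stimulated with uncultured cells, and these cannot be told apart. The labels give no age, number or pooling of mice and do not say whether the 2 libraries of a group came from separate mice or cultures, so the p-values below measure only the spread between these libraries, which may be technical.

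RGS proteins bind the GTP-loaded α subunit of a heterotrimeric G protein and speed up its GTP hydrolysis, so that the signal of a G protein-coupled receptor ends sooner. In lymphocytes they are best known for limiting chemokine receptor signaling through Gi, and thereby cell migration. *Rgs1*, *Rgs2*, *Rgs3*, *Rgs16* and *Rgs18* belong to the R4 family, *Rgs10* and *Rgs14* to the R12 family, and *Rgs19* to the RZ family.

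Between naive and effector cells, 1 of the 6 chosen genes expressed at a testable level rose and most others fell. The 2 tested RGS-numbered genes outside this choice, *Rgs11* and *Rgs12*, were higher in Th1 and Th17, and *Rgs11* also in Th2. *Rgs1* mRNA was 16.9-fold (Th1), 34.4-fold (Th2) and 19.3-fold (Th17) above the naive mean, whereas *Rgs2*, *Rgs10*, *Rgs14* and *Rgs19* were lower than in naive cells in all 3 subsets. *Rgs3* fell in Th2 and Th17 and did not pass the test in Th1. *Rgs16* was low in every library and highest in Th17, and *Rgs18* was at or near 0 throughout. Of the 8 genes, 6 had a mean of at least 1 FPKM over the 8 libraries and were tested; *Rgs16* and *Rgs18* did not reach this level.

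The test was limma on log2(FPKM + 1), with all 8 libraries in one fit and Benjamini-Hochberg adjustment over the 11198 genes tested. Differences below are on this scale, which understates the change of low genes, while ratios are of mean FPKM. In Th1 against naive cells, 1 of the 6 tested RGS genes was higher and 4 were lower at an adjusted p under 0.05, where 33.8% and 33.5% of all tested genes were higher and lower. The counts were 1 higher and 5 lower in Th2, with 31.8% and 38.7% of all tested genes, and again 1 and 5 in Th17, with 37.5% and 29.8%. The 3 comparisons share the naive libraries and are not independent of one another.

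**Figure D1:**
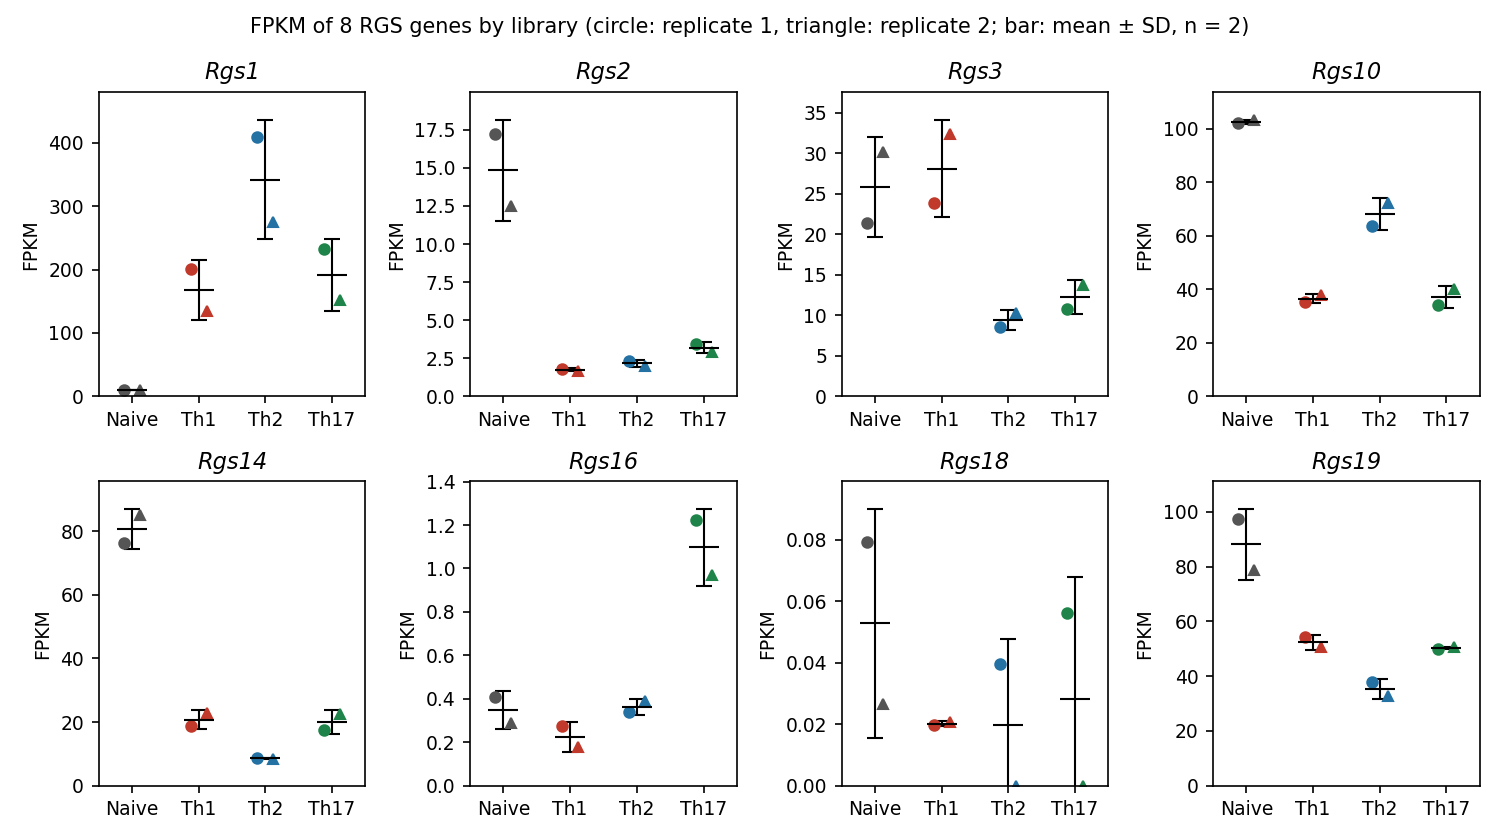
FPKM (y axis, linear, from 0, with its own range in each panel) of the 8 RGS genes in each library of the 4 groups (x axis); circles are replicate 1, triangles replicate 2, and the horizontal mark and bar are the mean and SD (n = 2; the bars of Rgs18 extend below 0 and are clipped). Rgs1 is lowest in naive cells and highest in Th2, Rgs2, Rgs10, Rgs14 and Rgs19 are highest in naive cells, Rgs3 is high in naive and Th1 cells, and Rgs16 reaches 1.22 FPKM in Th17 at most.

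Several of these genes are neighbours. *Rgs2* (chr1:143999338-144004149, mm10, minus strand), *Rgs1* (chr1:144244669-144249104, minus strand) and *Rgs18* (chr1:144752841-144775421, minus strand) lie in a cluster of RGS genes, in the order *Rgs2*, *Rgs13*, *Rgs1*, *Rgs21* and *Rgs18*, with 0 other protein-coding genes between them in GENCODE. Within this stretch *Rgs1* rose, *Rgs2* fell, and *Rgs13* and *Rgs18* stayed under 0.1 FPKM in every library. *Rgs21* was searched for by its symbol and had no FPKM values in these data. *Rgs16* (chr1:153740353-153745468, plus strand) lies 40.03 kb from *Rgs8*, which did not exceed 0.0305 FPKM. The other genes are apart, *Rgs3* at chr4:62559847-62703019 (plus strand), *Rgs10* at chr7:128373625-128418172 (minus strand), *Rgs14* at chr13:55369732-55384687 (plus strand) and *Rgs19* at chr2:181688423-181693924 (minus strand).

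Promoter sequence is shown for genes that fell together in all 3 subsets and have a window in the RefSeq table of GRCm38.p6, which covers 250 bases before to 50 after the gene start and holds 5 of the 8 genes. The sequences run 5′ to 3′ on the strand of the gene, upstream bases only, and capitals mark motif matches. The motifs searched on both strands were the cAMP response element (CRE) TGACGTCA and its shorter form TGACGT, AP-1 TGANTCA, NF-kB, STAT TTCNNNGAA, NFAT GGAAAA, the E-box CACGTG and the KLF/SP motif GGGCGG. Each CRE holds the shorter form on both strands, so these overlap. In this order, 1.79%, 7.513%, 7.808%, 0.8067%, 8.298%, 23.36%, 7.15% and 35.66% of the 32851 windows of 300 bases in the table hold each motif.
Rgs2 promoter, chr1:144004162-144004399, minus strand: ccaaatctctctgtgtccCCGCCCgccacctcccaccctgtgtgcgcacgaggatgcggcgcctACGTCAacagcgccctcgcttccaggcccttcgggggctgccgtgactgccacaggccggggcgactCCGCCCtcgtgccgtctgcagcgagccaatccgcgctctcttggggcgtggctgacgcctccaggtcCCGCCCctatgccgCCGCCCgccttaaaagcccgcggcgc
Rgs10 promoter, chr7:128418174-128418422, minus strand: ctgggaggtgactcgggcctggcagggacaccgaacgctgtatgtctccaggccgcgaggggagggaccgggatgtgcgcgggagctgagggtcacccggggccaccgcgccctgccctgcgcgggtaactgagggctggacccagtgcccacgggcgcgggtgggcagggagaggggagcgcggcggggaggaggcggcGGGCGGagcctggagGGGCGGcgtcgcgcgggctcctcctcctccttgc
Rgs19 promoter, chr2:181693978-181694227, minus strand: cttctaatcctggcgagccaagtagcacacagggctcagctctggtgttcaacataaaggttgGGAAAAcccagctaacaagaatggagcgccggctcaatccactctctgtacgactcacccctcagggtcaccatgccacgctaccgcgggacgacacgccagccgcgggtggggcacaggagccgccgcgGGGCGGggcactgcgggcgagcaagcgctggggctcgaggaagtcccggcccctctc

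The stretch of *Rgs2* holds 1 short CRE form, at position -186 from the gene start, and 4 KLF/SP matches, all read as their reverse complement on the strand of the gene. That of *Rgs10* holds 2 KLF/SP matches, at -50 and -35. That of *Rgs19* holds an NFAT match at -187 and 1 KLF/SP match at -57. *Rgs19* has 3 windows in the table, and the one shown starts farthest 5′; the window around chr2:181691818-181692067 holds none of the searched motifs. *Rgs16*, which was too low for the main test and so could not be called in either direction, has 2 KLF/SP matches in its window. The KLF/SP motif is the most frequent of those searched in the table. A match describes the letters only.

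The largest rise was that of *Rgs1*, which encodes a GTPase-activating protein for Gi and Gq that dampens chemokine responses of lymphocytes. Its naive libraries were at 10.1 and 9.82 FPKM (replicates 1 and 2). Th1 libraries had 201 and 135 FPKM, those of Th2 409 and 275 FPKM, and those of Th17 232 and 152 FPKM. Every effector library was far above both naive libraries, and replicate 1 was above replicate 2 in each of the 3 subsets. *Rgs1* rose over naive cells by 3.92 (Th1), 4.94 (Th2) and 4.11 (Th17), each with an SE of 0.29 and n = 2 per group (limma adjusted p = 2.67e-05, 7.28e-06 and 1.90e-05).

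Among the subsets, *Rgs1* was highest in Th2, and both Th2 libraries lay above all Th1 and Th17 libraries. Th1 was 1.02 lower than Th2 (limma adjusted p = 0.0264). This call was lost without Th1 replicate 2 (0.146), without Th2 replicate 1 (0.135) and with no filter on low values (0.107), each an adjusted p. The difference of Th17 from Th2 was -0.83 and did not pass (limma adjusted p = 0.0530), but passed with the replicate number as a block (0.00611) and after median scaling of the libraries (difference -1.04, adjusted p = 0.0320), in 4 of 18 alternative fits in all. Th1 and Th17 overlapped, and their difference was -0.19 with a 95% interval of -0.87 to 0.49.

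The gene with the reverse pattern in the same family was *Rgs2*, whose product acts mainly on Gq. In naive cells it was at 17.2 and 12.5 FPKM. It was at 1.83 and 1.68 FPKM in Th1, 2.34 and 2.01 FPKM in Th2, and 3.44 and 2.94 FPKM in Th17. No effector library came near the lower naive library. *Rgs2* fell in all subsets, with differences of -2.51 (Th1), -2.30 (Th2) and -1.91 (Th17; SE 0.16 each), and the naive mean was 8.45, 6.81 and 4.66 times that of each subset (limma adjusted p = 1.22e-05, 1.53e-05 and 4.14e-05).

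The subsets ranked Th17, Th2 and Th1 from high to low in *Rgs2*, with no overlap between their libraries. The steps were small on the log2(FPKM + 1) scale, which understates change at these levels. Th1 was 0.60 lower than Th17 (limma adjusted p = 0.0316), and the Th17 mean was 1.81 times that of Th1. The call did not hold with no filter (0.0950), with quantile normalization (0.0783), or without any single effector library (adjusted p 0.0525 to 0.157). The difference of Th17 from Th2 was 0.40 (limma adjusted p = 0.0800, and 0.0237 with the replicate block), and that of Th1 from Th2 was -0.20, with a 95% interval of -0.58 to 0.17.

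*Rgs3*, which acts on Gi and Gq and has long and short forms that these gene totals do not separate, set Th1 apart from the other subsets. Naive libraries were at 21.4 and 30.2 FPKM and Th1 libraries at 23.9 and 32.4 FPKM. Th2 had values of 8.55 and 10.3, and Th17 of 10.8 and 13.8. The naive and Th1 libraries overlapped and all lay above the Th2 and Th17 libraries. Against naive cells, *Rgs3* fell by 1.35 ± 0.22 (SE) in Th2 and by 1.00 ± 0.22 in Th17 (limma adjusted p = 0.00117 and 0.00538).

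The difference of *Rgs3* between Th1 and naive cells was 0.12, with a 95% interval of -0.39 to 0.64 (limma adjusted p = 0.637). Th1 was 1.47 above Th2, a 2.99-fold ratio of means (limma adjusted p = 0.00194), and 1.12 above Th17, a ratio of 2.28 (0.0103). The difference from Th17 did not pass without Th1 replicate 2 (adjusted p = 0.0671), without Th17 replicate 1 (0.0714) or with no filter (0.0503). Th17 and Th2 differed by 0.35 (limma adjusted p = 0.229, and 0.0149 with the replicate block).

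*Rgs10* and *Rgs14*, of the R12 family, fell in every subset, but differed in which subset had the lowest level. *Rgs10*, a small protein that acts on Gi subunits, was at 102 and 103 FPKM in naive cells. Th1 libraries were at 35.3 and 37.7 FPKM, Th2 libraries at 63.7 and 72.2 FPKM, and Th17 libraries at 34.2 and 40.0 FPKM. Th2 lay between naive cells and the other subsets without overlap. The differences from naive cells were -1.47 (Th1), -0.59 (Th2) and -1.45 (Th17; SE 0.11 each, limma adjusted p = 3.38e-05, 0.00272 and 3.17e-05).

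*Rgs10* was 0.88 lower in Th1 than in Th2 and 0.86 lower in Th17 than in Th2 (limma adjusted p = 0.00105 and 0.00147). Th1 and Th17 overlapped, with a difference of -0.02 and a 95% interval of -0.29 to 0.25.

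*Rgs14*, which also carries Ras-binding and GoLoco domains and so joins G protein and Ras signaling, had its lowest level in Th2. Naive libraries were at 76.2 and 85.1 FPKM. Those of Th1 were at 18.6 and 22.8 FPKM, of Th2 at 8.74 and 8.44 FPKM, and of Th17 at 17.4 and 22.6 FPKM. Naive libraries were far above all others, and both Th2 libraries were below all others. The naive mean was 9.39 times the Th2 mean, 3.89 times the Th1 mean and 4.03 times the Th17 mean.

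On the log2 scale *Rgs14* differed from naive cells by -1.92 (Th1), -3.09 (Th2) and -1.97 (Th17; SE 0.15 each, limma adjusted p = 3.86e-05, 3.14e-06 and 2.98e-05). Th1 was 1.17 and Th17 1.12 above Th2 (limma adjusted p = 0.00106 and 0.00161). Th1 and Th17 overlapped and differed by 0.05, with a 95% interval of -0.31 to 0.41.

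*Rgs19*, also called GAIP, a membrane-associated protein that acts on Gi subunits, fell in every subset and had its lowest level in Th2. It was at 97.3 and 78.9 FPKM in naive cells and at 54.3 and 50.5 FPKM in Th1. Th2 libraries were at 38.0 and 32.8 FPKM and Th17 libraries at 50.03 and 50.54 FPKM. Naive libraries were above all effector libraries and Th2 libraries below all others. Its differences from naive cells were -0.73 (Th1), -1.29 (Th2) and -0.79 (Th17; SE 0.13 each, limma adjusted p = 0.00201, 0.000106 and 0.00136).

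Th1 was 0.56 above Th2 in *Rgs19* (limma adjusted p = 0.0128), a call lost without Th1 replicate 1 (0.0703) or Th2 replicate 2 (0.0787). Th17 was 0.50 above Th2 (limma adjusted p = 0.0202). This call was lost after median scaling (difference 0.30, adjusted p = 0.1002), with quantile normalization (0.36, 0.0703) and with no filter (0.0523). It was also lost without Th2 replicate 2 (0.111), Th17 replicate 1 (0.0719) or Th17 replicate 2 (0.0889). Th1 and Th17 overlapped, with a difference of 0.06 and a 95% interval of -0.25 to 0.36.

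**Figure D2:**
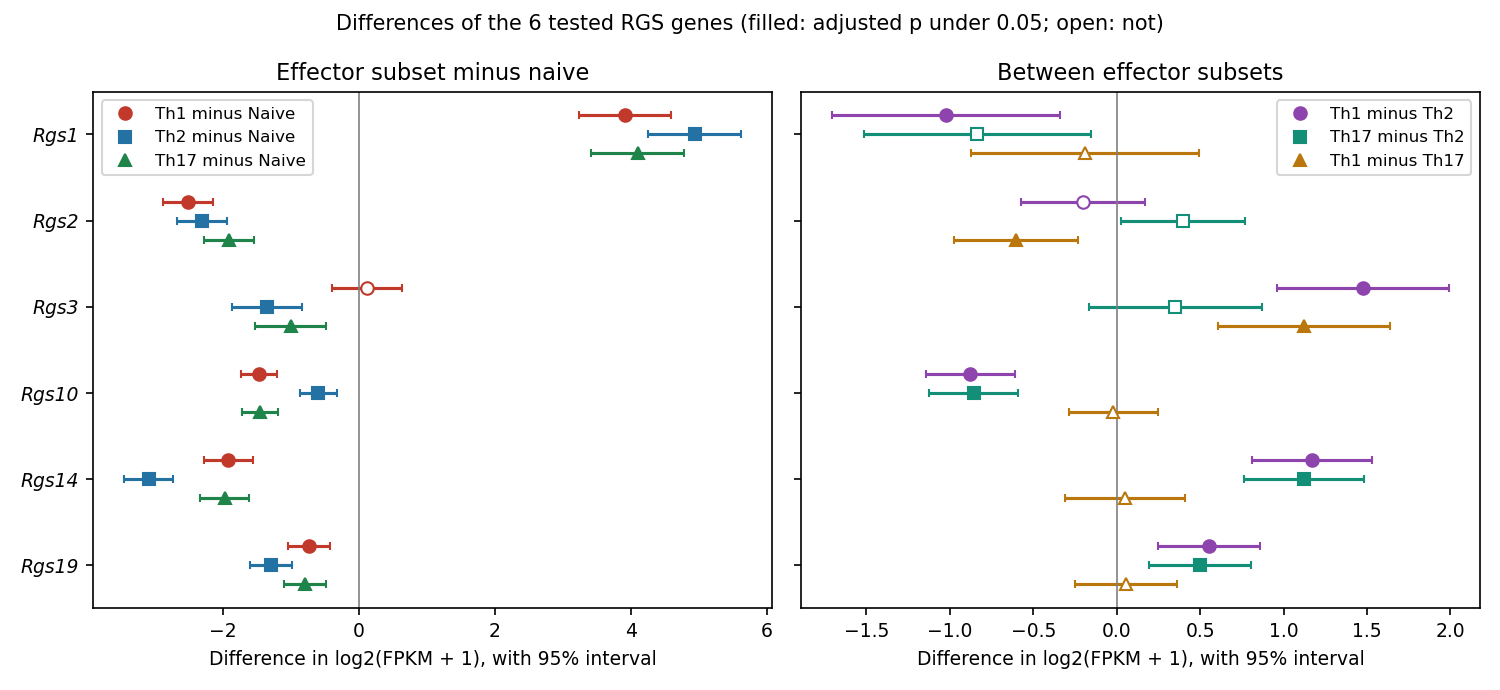
Differences in log2(FPKM + 1) (x axis) of the 6 tested RGS genes (y axis), each effector subset minus naive cells on the left and between subsets on the right; points are limma estimates from 2 libraries per group, bars are 95% intervals, and filled points have an adjusted p under 0.05. Rgs1 lies at 3.92 to 4.94 against naive cells, Rgs2, Rgs10, Rgs14 and Rgs19 lie below 0 in all 3 subsets, and between subsets the points of Rgs10 and Rgs14 for Th2 lie on opposite sides of 0.

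Between subsets, Th1 differed from Th2 in 5 of the 6 tested genes. *Rgs3*, *Rgs14* and *Rgs19* were higher in Th1 (27.4% of all tested genes were higher), and *Rgs1* and *Rgs10* were lower (16.9%). Th17 against Th2 gave 2 genes higher, *Rgs14* and *Rgs19* (31.7% of all tested genes), and 1 lower, *Rgs10* (12%). Th1 against Th17 gave 1 higher, *Rgs3* (9.17%), and 1 lower, *Rgs2* (16%). The median difference of all tested genes between Th17 and Th2 was 0.18, and it was 0.01 after median scaling.

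*Rgs16*, an R4 family gene known to be induced in activated T cells, was low here. It was at 0.410 and 0.288 FPKM in naive cells and 0.275 and 0.177 FPKM in Th1. It was at 0.338 and 0.389 FPKM in Th2 and 1.22 and 0.972 FPKM in Th17. Both Th17 libraries were above all others, and the Th1 libraries were below the naive ones. The confidence intervals in the tables imply 84 and 50 fragments in the Th17 libraries and 11 to 25 in the other 6. In a fit with no filter on low values, Th17 was 0.64 above naive cells, 0.62 above Th2 and 0.77 above Th1 (limma adjusted p = 0.00376, 0.00947 and 0.00647), and the ratio of the Th17 to the naive mean was 3.14. Of its exonic bases, 10.1% are shared with *Gm28513*, an antisense gene that the tables do not list, and the labels and the methods differ on whether the library kit kept strand.

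*Rgs18*, known as an RGS gene of platelets and megakaryocytes, was at 0.0791 and 0.0265 FPKM in naive cells, 0.0196 and 0.0207 FPKM in Th1, 0.0396 and 0 FPKM in Th2, and 0.0562 and 0 FPKM in Th17. The implied fragments were 0 to 3 per library, and a count of 0 allows up to 3. No difference between groups was detectable at this depth.

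The sum over the 8 genes moved less than their makeup. The summed FPKM of naive cells was 322 ± 3.39 (SD, n = 2), that of Th1 cells 307 ± 39.2, that of Th2 cells 466 ± 91.2 and that of Th17 cells 316 ± 47.3. Without *Rgs1*, the naive sum was 312 ± 3.21, and the sums of Th1, Th2 and Th17 cells were 139.7 ± 7.79, 124 ± 3.12 and 124 ± 9.60. The first sums overlapped between naive, Th1 and Th17 libraries, and the second did not overlap between naive and effector libraries.

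In naive cells the total was shared by *Rgs10* (31.8%), *Rgs19* (27.3%) and *Rgs14* (25.0%), with 3.09% from *Rgs1*. *Rgs1* made up 54.0% in Th1, 72.8% in Th2 and 60.1% in Th17. The share of *Rgs14* was 6.85%, 1.88% and 6.50% in these subsets, and that of *Rgs10* was 11.997%, 15.006% and 11.979%. The shares are descriptions, since a rise in one gene lowers the share of the rest.

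**Figure D3:**
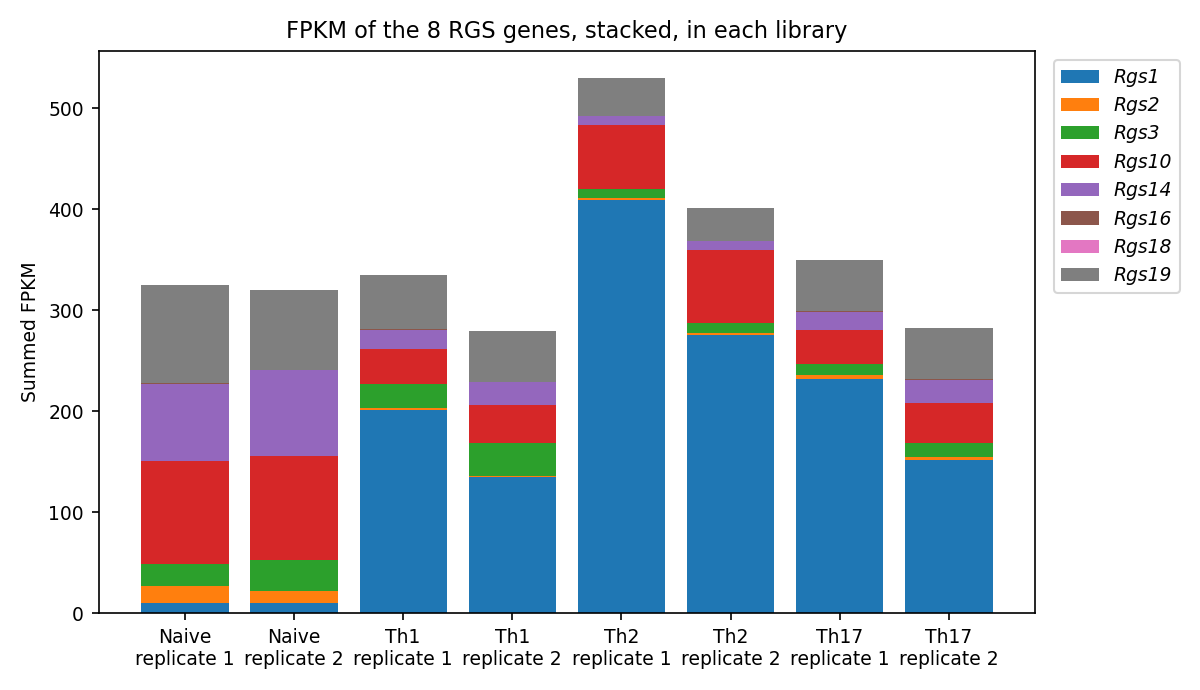
Summed FPKM (y axis, from 0) of the 8 RGS genes in each of the 8 libraries (x axis), stacked by gene. Rgs10, Rgs14 and Rgs19 fill most of the naive bars, whereas Rgs1 fills 54.0% to 72.8% of the effector bars on average per group; Rgs16 and Rgs18 are too low to be seen.

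The tested genes whose levels were most alike over the 8 libraries, by Pearson's r on log2(FPKM + 1), are named for each member. *Leprel2*, *Mt2* and *Cox6b2* were most like *Rgs1* (r = 0.995, 0.994 and 0.993), and the mean of *Mt2*, a metallothionein, was 0.0623 FPKM in naive cells, against 211 (Th1), 576 (Th2) and 288 FPKM (Th17). For *Rgs2* they were *Stxbp3a*, *Exd2* and *B3gnt2* (0.995, 0.994 and 0.993). For *Rgs3* they were *Tbc1d2b*, *Rai1* and *Ttc7b* (0.989, 0.985 and 0.980).

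*Rgs10* was closest to *Exog*, *Tfap4* and *Zfp362* (r = 0.995, 0.993 and 0.992), *Rgs14* to *Ppm1d*, *1110038D17Rik* and *4930523C07Rik* (0.999, 0.997 and 0.997), and *Rgs19* to *Arpc5l*, *Tmem9b* and *Snapc5* (0.997, 0.997 and 0.995). These values rest on 4 groups of 2 libraries and come from a search over all tested genes, so they describe likeness of pattern only.

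The 8 genes held 84.4% to 96.5% of the RGS FPKM of each library. Of 13 others searched, 12 were in the tables and 2 were tested. *Rgs11*, an R7 family member, rose from a mean of 10.5 FPKM in naive cells to 25.1 in Th1, 27.3 in Th2 and 42.6 in Th17, by 1.18, 1.2997 and 1.92 (limma adjusted p = 0.000306, 0.000164 and 2.44e-05). *Rgs12*, of the R12 family, rose by 0.82 in Th1 and 0.76 in Th17 (0.00908 and 0.0123), while its difference in Th2 was 0.42 (0.0969).

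R7 family proteins are stabilised by the atypical Gβ subunit that *Gnb5* encodes. The mean of *Gnb5* was 0.768 FPKM in naive cells, against 25.7 (Th1), 8.91 (Th2) and 36.1 FPKM (Th17), and it rose by 3.91, 2.48 and 4.38 (limma adjusted p = 5.83e-07, 3.53e-06 and 3.46e-07). It had the largest difference of the 10 tested genes for Gβ and Gγ subunits. Against naive cells, 8 of these 10 were higher in Th1, 3 in Th2 and 8 in Th17 (limma), where 33.8%, 31.8% and 37.5% of all tested genes were. At the adjusted threshold 0 were lower, and likewise 0 at an unadjusted p under 0.05. Their median difference was 0.82, 0.12 and 0.72, against -0.01, -0.11 and 0.08 over all tested genes. *Gng2*, a Gγ subunit, rose by 2.62, 1.97 and 2.05, and *Gng11* rose by 1.81 in Th1.

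The Gα subunits, on which RGS proteins act, had 10 tested genes of 15 listed. In Th1, 6 were higher and 1 lower (33.8% and 33.5% of all tested genes), in Th2 6 and 2 (31.8% and 38.7%), and in Th17 7 and 1 (37.5% and 29.8%). The median differences were 0.50, 1.008 and 0.55, and over all tested genes -0.01, -0.11 and 0.08. *Gnaq*, the Gq subunit, rose from a mean of 0.911 FPKM to 15.6 in Th1, 5.17 in Th2 and 4.79 in Th17, by 3.12, 1.69 and 1.60 (limma adjusted p = 1.09e-06, 1.54e-05 and 2.12e-05). *Gna15*, of the same class, rose by 2.30, 2.55 and 1.62.

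*Gna13*, another Gα subunit gene, rose most in Th2, by 1.77, against 0.45 in Th1 and 0.52 in Th17. *Gnai2*, the main Gi subunit of lymphocytes, had a mean of 259 FPKM in naive cells and rose by 0.55 in Th1 and 0.50 in Th17 (limma adjusted p = 0.00543 and 0.00837), with a difference of 0.19 in Th2 (0.197).

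Other proteins with an RGS domain changed in both directions. Of 12 tested, Th1 had 2 higher and 6 lower (33.8% and 33.5% of all tested genes), Th2 had 3 and 8 (31.8% and 38.7%), and Th17 had 4 and 7 (37.5% and 29.8%). Their median differences were -0.32, -0.58 and -0.46, where those of all tested genes were -0.01, -0.11 and 0.08. *Axin2*, a Wnt pathway scaffold, fell (differences -3.23, -2.74 and -3.28). *Arhgef1*, an exchange factor that acts downstream of G12 and G13 subunits, fell from a mean of 614 FPKM to 224, 131 and 149 (differences -1.45, -2.21 and -2.04, limma adjusted p = 0.000415, 4.40e-05 and 7.14e-05). *Grk6*, a kinase that phosphorylates active receptors, fell as well (-0.97, -1.53 and -1.63).

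Effectors and further regulators were mixed. Their counts stand beside the same shares of all tested genes, which were 33.8%, 31.8% and 37.5% higher and 33.5%, 38.7% and 29.8% lower in Th1, Th2 and Th17. Of 11 tested effectors, 4, 4 and 5 were higher and 6 in each subset were lower (Th1, Th2 and Th17), with median differences of -0.49, -1.11 and -1.06. *Pik3r5*, a regulatory subunit of the Gβγ-activated PI3 kinase, fell (-1.21, -3.63 and -2.64), whereas the catalytic subunit gene *Pik3cg* rose by 0.80, 1.64 and 0.88. *Pik3r6*, the gene of another regulatory subunit of this kinase, rose by 0.84, 0.30 and 1.96 but did not exceed 3.03 FPKM in any library. *Dock2*, a Rac exchange factor of migrating lymphocytes, fell (-1.26, -2.03 and -1.06). Among 8 tested regulators, 3, 4 and 4 were higher and 4, 4 and 3 lower, with medians of -0.33, 0.10 and 0.22. *Arrb1*, an arrestin, rose by 2.24, 2.70 and 2.48, whereas the other arrestin listed, *Arrb2*, fell (-0.44, -1.39 and -0.90). The naive means of *Arrb1* and *Arrb2* were 11.2 and 138 FPKM.

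**Figure D4:**
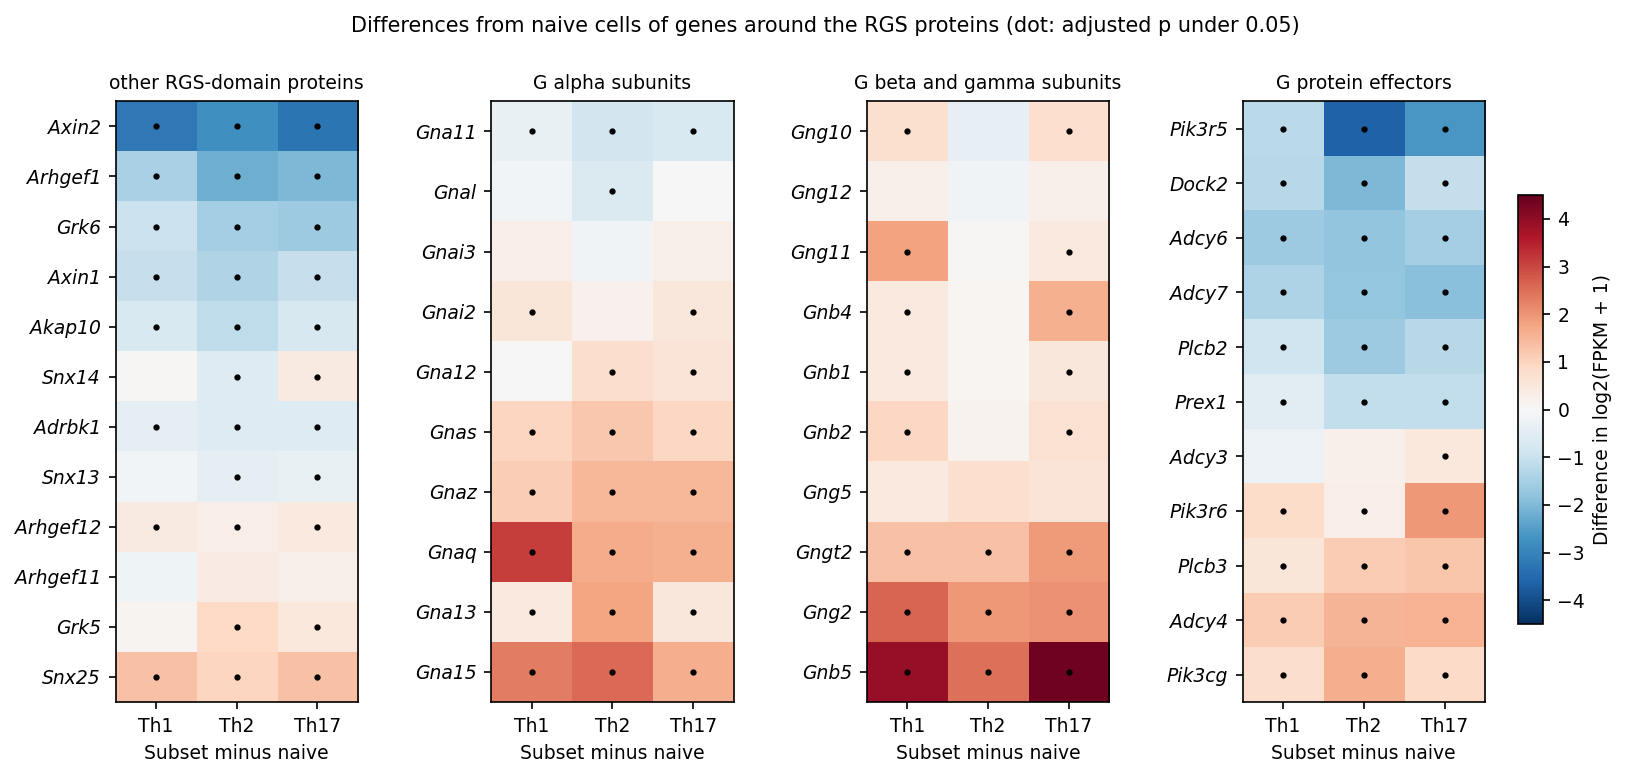
Differences from naive cells in log2(FPKM + 1) (color scale) of the tested genes for other RGS-domain proteins, Gα subunits, Gβ and Gγ subunits and effectors (rows), in Th1, Th2 and Th17 (columns); a dot marks a limma adjusted p under 0.05, n = 2 libraries per group. Gnb5 (2.48 to 4.38) and Gnaq (1.60 to 3.12) are among the strongest rises, and Axin2 (-3.28 to -2.74) and Pik3r5 (-3.63 to -1.21) are among the strongest falls.

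The list of migration receptors, most of which couple to Gi, had 18 tested genes of 23 listed. It includes *Ptger4*, a prostaglandin receptor that couples mainly to Gs and that is counted as higher in Th1 and Th2 (0.29 and 0.58). In Th1, 10 were higher and 7 lower than in naive cells (33.8% and 33.5% of all tested genes), in Th2 8 and 7 (31.8% and 38.7%), and in Th17 12 and 5 (37.5% and 29.8%). Their median differences were 0.58, 0.01 and 1.71, against -0.01, -0.11 and 0.08 over all tested genes. *Ltb4r1*, a leukotriene B4 receptor, rose by 6.68, 5.63 and 7.19. *Ccr7* and *S1pr1*, which guide naive cells into and out of lymph nodes, fell in all 3 subsets, *Ccr7* with differences of -3.004, -2.14 and -1.03 and *S1pr1* of -2.63, -3.93 and -1.27.

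The libraries matched their labels by lineage markers, with the summed FPKM of 4 markers each for Th1, Th2 and Th17 highest in the labelled subset. Of the Th1 markers, *Cxcr3* was not, with a mean of 8.68 FPKM in Th1 and 11.4 FPKM in Th17. In addition, all 6 naive markers fell in each subset. The fragments implied by the confidence intervals were 14463466 to 21058286 per library, an estimate that covers counting error only, and both naive libraries were the shallowest. Markers of other cells moved with the groups as well. The 8 B cell markers summed to 7.56 to 9.52 FPKM in naive cells, 2.85 to 3.79 in Th1, 8.86 to 12.2 in Th2 and 22.1 to 22.7 in Th17, with *Ebf1* at 0 in 1 naive library. The genes in a sum did not all move together. The mean of *Ebf1* was 0.0107 FPKM in naive cells and 8.30 in Th17, while *Cd79a* was at 3.57 and 3.76 and *Ms4a1* at 0.413 and 0.341. The 8 myeloid markers found summed to 12.7 to 13.9, 8.13 to 8.93, 20.8 to 28.2 and 17.6 to 17.6 FPKM in the same order of groups, with *S100a9* at 0 in all 6 effector libraries. Between naive cells and Th2, the mean of *Lyz2* rose from 6.63 to 15.8 FPKM and that of *Emr1* from 0.914 to 5.26. The mean of *Csf1r* fell from 3.52 to 0.915, and it was lower in Th1 and Th17 as well.

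Platelet and megakaryocyte markers (6 genes) summed to 1.45 to 1.81, 0.904 to 1.11, 6.36 to 10.2 and 7.64 to 7.81 FPKM, with *Gp6* at 0 in 6 libraries and *Gp9* in 5. The mean of *Pf4* was 0.0571 FPKM in naive cells, 6.01 in Th2 and 5.39 in Th17, while that of *Itga2b* was 1.52, 0.825 and 0.781. The 5 dendritic cell markers summed to at most 2.34 FPKM and the 3 NK markers to at most 1.44. *Cd8a* and *Cd8b1* together were at 54.5 and 93.4 FPKM in naive cells and 8.94 to 13.0 in effector cells. Nearly all of this was *Cd8b1*, with means of 71.6 (naive), 9.73 (Th1), 10.9 (Th2) and 11.2 FPKM (Th17). The means of *Cd8a* were 2.36, 0.133, 0.0283 and 0.155 FPKM in the same order, so the 2 markers differ widely in level. The part of such cells in the RGS values was not tested, and in bulk RNA a change in the share of cells that express a gene and a change in RNA per cell cannot be told apart.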

How the data were processed

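RNA was measured in 8 libraries, grouped and numbered by their sample labels. The authors aligned reads of 50 bases to mm10 with Bowtie (0.12.8) and TopHat (1.3.2), computed FPKM per gene with Cufflinks (2.0.2) and deposited FPKM per library, beside its confidence interval and status. No further scaling between libraries is stated, and the gene annotation is not given in the sources used here. Rows of a repeated symbol were summed. Depth was estimated from the width of the intervals, which covers counting error only.

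FPKM values were compared after adding a pseudocount of 1 and taking log2, for genes that averaged 1 FPKM or more over the libraries, with limma 3.58.1 in R 4.3.3 (lmFit, contrasts.fit and eBayes with a trend) in one fit of 4 group means. Tests were two-sided, with Benjamini-Hochberg adjustment over all genes tested and a threshold of 0.05. The fit was also run on simulated data with independent noise in each library and few changed genes. That simulation covers neither deviations shared by same-numbered libraries nor the many changes against naive cells seen here. Python 3.11.15 with numpy 2.4.6 and pandas 2.3.3 made the tables. Gene positions and overlaps came from the files and GENCODE, and promoters from RefSeq.

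The members and the gene lists were chosen with earlier results of these data known. The genes named were the 8 members with all 6 contrasts, up to 4 genes per list with a called difference of at least 1, genes whose role a sentence needed, and the 3 genes most like each tested member. Same-numbered libraries deviated together from their group means, with r of 0.138 to 0.294 for the 6 pairs of groups. The replicate numbers from the labels were therefore used as a block in an alternative fit, which is printed where it changes a call. The main fit has no such term, so its SEs and p-values leave this pairing out. The SE of *Rgs1*, for example, was 0.29 in the main fit and 0.15 with the block. The alternatives were a pseudocount of 0.1, other filters on low values, median scaling, quantile normalization, no trend, a fit of only the groups compared, the replicate block, only genes with status OK, the highest row of a repeated symbol, and each library left out. The microarray, RT-PCR, flow cytometry and mouse experiments were not analysed here, and a gene that the rule for named genes selects is not reported here.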

Additional observations from a re-analysis of the deposited data

Results flagged for a closer look

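Differences between effector subsets were tested directly and passed at an adjusted p under 0.05 (limma, 2 libraries per group, difference in log2(FPKM + 1)) in 10 cases, and each means that the change from naive cells differed between those subsets. Th1 minus Th2 was -1.02 for *Rgs1*, 1.47 for *Rgs3*, -0.88 for *Rgs10*, 1.17 for *Rgs14* and 0.56 for *Rgs19*. Th17 minus Th2 was -0.86 for *Rgs10*, 1.12 for *Rgs14* and 0.50 for *Rgs19*. Th1 minus Th17 was -0.60 for *Rgs2* and 1.12 for *Rgs3*. Not all of these calls held in the alternative fits. With no filter on low values, those of *Rgs1* (Th1 minus Th2), *Rgs19* (Th17 minus Th2), *Rgs2* and *Rgs3* (both Th1 minus Th17) were lost. That of *Rgs2* was also lost with quantile normalization, and that of *Rgs19* (Th17 minus Th2) with both scalings. Calls lost without single libraries, *Rgs19* in Th1 minus Th2 among them, are given above. *Rgs10* and *Rgs14* differed from Th2 in opposite directions in both Th1 and Th17. Groups of 2 libraries were not examined for single libraries that stand apart.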

How the results depend on the processing

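Of 360 differences of the 6 tested RGS genes under 10 alternatives, 346 changed neither sign nor call, 7 no longer passed, 5 newly passed and 2 changed sign. With each library left out in turn, 262 of 288 were kept, 15 no longer passed, 3 newly passed and 8 changed sign. The values that changed sign did not pass the test in any fit. *Rgs10*, Th1 minus Th17, became 0.061 with median scaling and 0.019 with quantile normalization, and ranged from -0.13 to 0.088 without single libraries. Without single libraries, Th1 minus Th17 ranged from -0.49 to 0.12 for *Rgs1* and from -0.13 to 0.23 for *Rgs14*, and Th1 minus naive from -0.11 to 0.36 for *Rgs3*. The cause was not tested.

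The count of RGS genes higher in Th17 than in Th2, 2 as reported, was 1 with median scaling, 1 with quantile normalization and 1 to 3 with single libraries left out. The count lower in Th17 than in Th2, 1 as reported, was 2 with median scaling, 2 with a filter of at least 1 FPKM in at least 2 libraries, and 1 to 2 with single libraries left out. With no filter, which adds *Rgs16* and *Rgs18*, 2 were higher in Th17 than in naive cells, 0 were higher in Th1 than in Th17 and 1 was lower in Th1 than in Th2. With quantile normalization, 0 were lower in Th1 than in Th17. Without single libraries the ranges were 0 to 1 higher and 0 to 1 lower in Th1 than in Th17, and 1 to 2 lower in Th1 than in Th2. The counts of RGS genes in this paragraph were not set against the share of all tested genes called in each alternative. The summed FPKM of naive cells was 304 with median scaling.

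The replicate numbers were used as a block in one alternative. With the replicate block, 4 RGS genes were higher and 2 lower in Th17 than in Th2, since *Rgs1*, *Rgs2* and *Rgs3* passed. The pairing changed no other call of a tested RGS gene. Calls over all tested genes rose in both directions too, from 31.7% higher and 12% lower in the main fit. With the block 71.9% of these calls were higher, against 72.6% in the main fit.

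Scaling bears on all genes. Th17 against Th2 gave 3546 higher and 1339 lower genes (72.6% of calls higher), whereas median scaling gave 2213 and 2129 (51.0%), and quantile normalization 2256 and 2191 (50.7%). For Th2 against naive cells, 45.1% of calls were higher, and 55.1% with median scaling, and the median of all tested genes moved from -0.11 to 0.07. For Th1 against Th2 the share was 61.8%, and 50.01% with median scaling. For Th1 against Th17 it was 36.5%, and 47.3% with median scaling. For Th17 against naive cells it was 55.7%, and 44.2% with quantile normalization. Without single libraries, the genes called numbered 557 to 1020 (higher) and 954 to 1739 (lower) in Th1 against Th17, 1753 to 3030 higher in Th1 against Th2, and 1861 to 3548 (higher) and 877 to 1328 (lower) in Th17 against Th2. An SD from 2 libraries is imprecise, and at 0 to 3 fragments *Rgs18* cannot show a difference.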
